A study of Mus musculus with 18 samples.

Results

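The immediate early genes examined here were Fos, Fosb, Fosl2, Jun, Junb, Atf3, Egr1, Nr4a1, Ier2 and Dusp1. They were taken from a gene table by symbol, which gave 10 genes of 54347 rows, and all 10 were among the 18728 genes that passed the filter on low counts. The genes were chosen by their higher CPM values in knockout libraries of the same data, above all in brown fat of the replicate 2 knockout mouse. Differences between genotypes are therefore given below as a description, without a test. RNA with a polyA tail was sequenced from interscapular brown (iBAT), inguinal white (iWAT) and epididymal white (eWAT) adipose tissue of 6 mice aged 12 weeks. Of these, 3 were wild type (wt) and 3 were knockout (ko) mice, in which CRISPR/Cas9 had removed sequence including exon 1 of Gm15551, a gene for a long noncoding RNA, from the whole body (ΔGm15551). Both genotypes were litter mates with the same strain label, C57BL/6N-ΔGm15551, and were fed chow. The knockout mice carry the deletion of a single line, the labels give no zygosity, and each of the 6 groups held 3 libraries. Within a genotype, a replicate number stands for 1 mouse, which gave 1 library per tissue.

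Immediate early genes are transcribed within minutes of a stimulus from transcription factors that are already present in the cell, and most of their mRNAs decay quickly. Fos, Fosb, Fosl2, Jun and Junb encode subunits of the AP-1 transcription factor, in which a FOS protein pairs with a JUN protein or JUN proteins pair with each other, and Atf3 encodes a stress-induced partner from the ATF/CREB family. Egr1 encodes a zinc finger transcription factor, Nr4a1 encodes the orphan nuclear receptor NUR77, Ier2 encodes a small nuclear protein, and Dusp1 encodes a phosphatase that switches off MAP kinases. In brown fat, noradrenaline raises cAMP in the adipocyte and activates CREB, which binds the cAMP response element (CRE), and Nr4a1 is a known target of this signal.

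The sequences upstream of 4 of the genes are shown because these genes stood out in knockout iBAT or carried the most CRE letters. Each is the run of 250 bases before the RefSeq start on GRCm38.p6, written in the direction of the gene. Nr4a1 is chr15:101266596-101266845 on the plus strand, Fosb is chr7:19310046-19310295 on the minus strand, Fos is chr12:85473640-85473889 on the plus strand and Dusp1 is chr17:26508473-26508722 on the minus strand. Capitals mark the CRE or its core (TGACG) and the EGR site (GCGNGGGCG), on either strand.
Nr4a1: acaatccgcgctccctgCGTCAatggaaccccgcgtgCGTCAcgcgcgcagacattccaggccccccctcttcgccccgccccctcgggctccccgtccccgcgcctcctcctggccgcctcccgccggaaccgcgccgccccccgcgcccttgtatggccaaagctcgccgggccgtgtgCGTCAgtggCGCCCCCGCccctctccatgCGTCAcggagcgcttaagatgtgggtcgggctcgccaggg
Fosb: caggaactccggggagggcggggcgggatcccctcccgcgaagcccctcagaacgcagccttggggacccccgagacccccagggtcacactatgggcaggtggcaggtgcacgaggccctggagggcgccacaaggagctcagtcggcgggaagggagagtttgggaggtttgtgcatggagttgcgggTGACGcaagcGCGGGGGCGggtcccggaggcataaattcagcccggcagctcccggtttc
Fos: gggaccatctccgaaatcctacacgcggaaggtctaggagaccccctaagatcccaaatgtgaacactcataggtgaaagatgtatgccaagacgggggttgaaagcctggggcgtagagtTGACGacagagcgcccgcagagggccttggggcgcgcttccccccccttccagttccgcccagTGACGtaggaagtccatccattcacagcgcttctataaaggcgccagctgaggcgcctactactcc
Dusp1: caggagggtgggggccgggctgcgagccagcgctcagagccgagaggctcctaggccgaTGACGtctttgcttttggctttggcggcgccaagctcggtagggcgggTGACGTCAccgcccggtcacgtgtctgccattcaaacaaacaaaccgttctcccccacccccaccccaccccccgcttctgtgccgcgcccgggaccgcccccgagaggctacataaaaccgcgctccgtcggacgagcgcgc

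RefSeq windows were found for 8 of the 10 genes, all but Egr1 and Ier2. The CRE core lay in 6 of the 8 windows (Fos, Fosb, Junb, Atf3, Nr4a1 and Dusp1) and in 17.8% of 32851 such windows. In Nr4a1 it occurred 4 times, from positions -233, -213, -69 and -40 relative to the start. The full CRE (TGACGTCA), which contains the core on both strands, lay in the window of Dusp1 and in 1.55% of all windows. The EGR site, the sequence bound by EGR proteins, lay in Fosb, Fosl2 and Nr4a1 and in 4.7% of all windows. The TATA box (TATAAA) lay in Fos and in 12.4% of all windows. No member window held the AP-1 site TGANTCA (6.75% of all windows), the NR4A element AAAGGTCA (1.34%) or the CArG box bound by serum response factor (1.47%). All motifs were searched on both strands, and a match describes letters in this window only. The GENCODE genes of Fosl2, Nr4a1, Atf3 and Dusp1 begin further upstream, so that these windows lie inside them. The remaining members are chr4:95049034-95052222 (Jun), chr8:84974484-84978718 (Junb), chr1:191170296-191218039 (Atf3), chr5:32135801-32157842 (Fosl2), chr18:34859823-34864984 (Egr1) and chr8:84661331-84662852 (Ier2) in GENCODE on GRCm38.

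**Figure D1:**
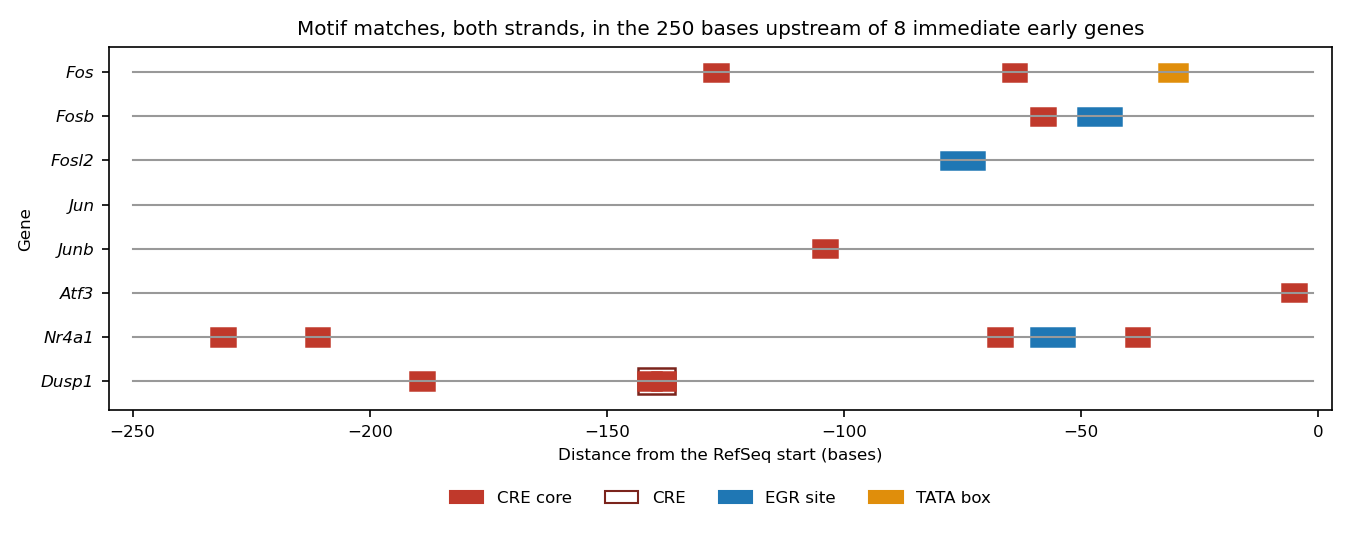
Motif matches in the 250 bases upstream of 8 immediate early genes, by distance from the RefSeq start in bases. Red boxes are CRE cores, the open box is the full CRE, blue boxes are EGR sites and the orange box is a TATA box. Nr4a1 has 4 CRE cores and 1 EGR site, and Jun has no match.

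Libraries held 14997901 to 34389586 estimated counts, and a count of 0 allows up to 0.0728 to 0.235 CPM (counts relative to the library total after TMM scaling between libraries), which covers counting error only. Gm15551 held 40 to 316 counts in wild type libraries and 0 to 4 in knockout libraries, so that the labels of genotype held in every library. The adipocyte markers were present in all libraries, and the summed level of 5 brown adipocyte markers was 6256 to 11219 CPM in iBAT, 12.1 to 203 CPM in iWAT and 4.06 to 8.35 CPM in eWAT. White libraries that stood apart held markers of other tissue. The sum of 7 lymphocyte markers was 898 CPM in iWAT wt replicate 3 and 381 CPM in iWAT ko replicate 2, against 4.14 to 17.9 CPM in the other iWAT libraries. In iWAT ko replicate 1 the sum of 7 skeletal muscle markers was 4231 CPM. The sum of 5 epididymis markers was 4821 CPM in eWAT ko replicate 3, although Lcn9 was at 0 there. The members' counts, medians and tissue calls and the counts of related genes are given with and without these 4 libraries, while most ratios of single genes, the correlations and the wild type fits are given with them. In bulk RNA, fewer cells of a type and less RNA per cell cannot be told apart.

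Levels of the genes differed widely when set per length. In wild type iBAT, the mean level per kilobase of exon was 14.1 ± 3.11 for Jun, 12.6 ± 0.798 for Ier2, 12.2 ± 6.32 for Dusp1, 9.15 ± 1.25 for Junb and 6.59 ± 1.88 for Nr4a1 (CPM per kilobase, SD, n = 3). It was 2.87 ± 0.19 for Fosl2, 2.37 ± 0.262 for Egr1, 2.36 ± 3.18 for Atf3, 0.617 ± 0.21 for Fos and 0.0612 ± 0.027 for Fosb. The JUN genes therefore stood above the FOS genes in wild type brown fat, and Fosb was close to the limit of detection.

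**Figure D2:**
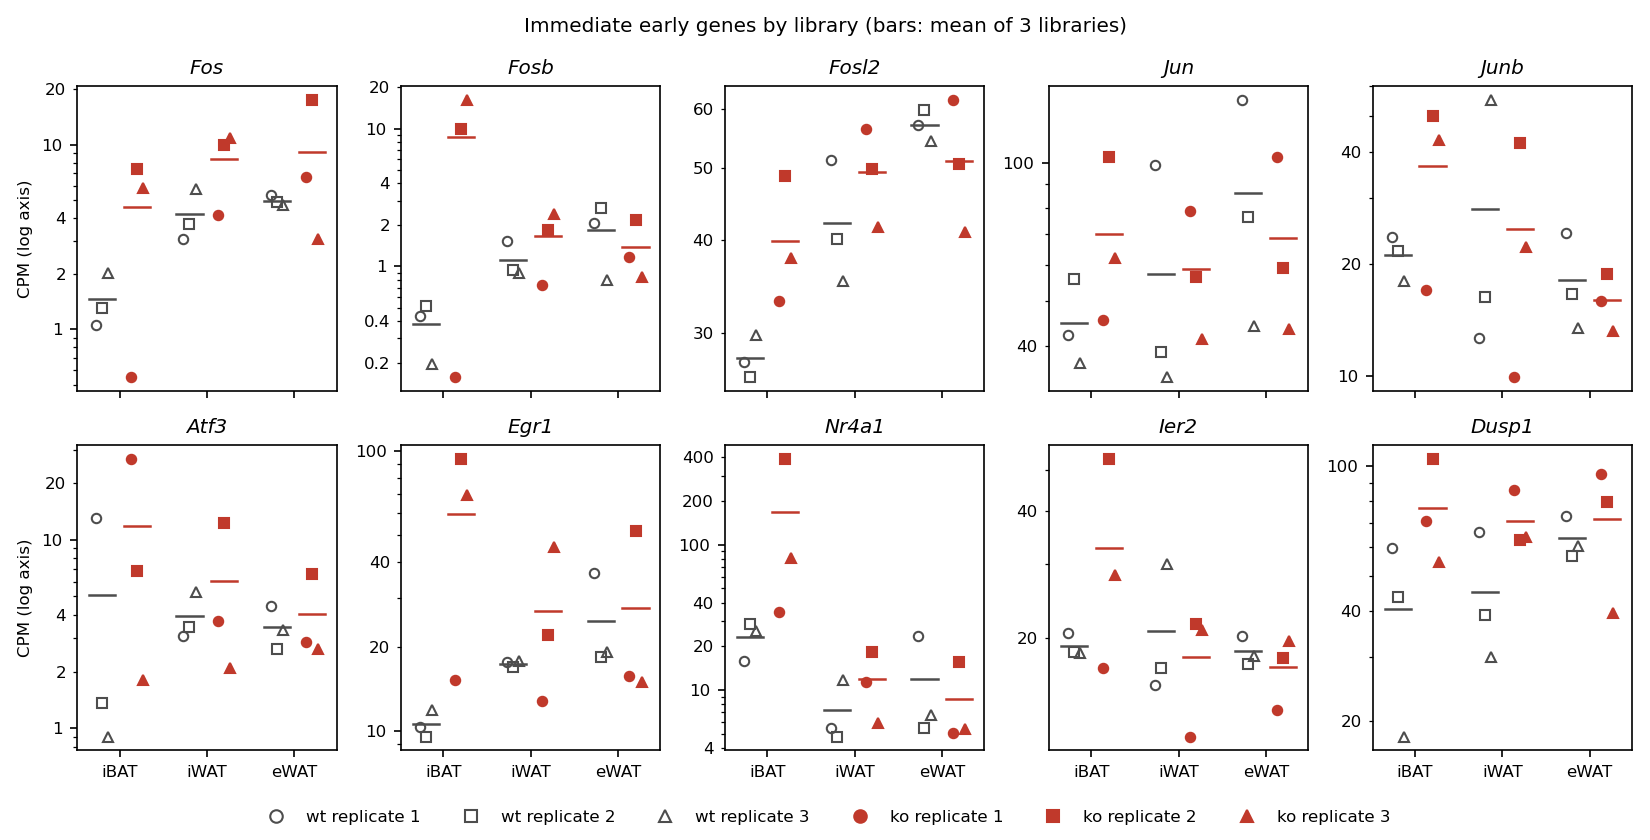
Level of each gene in CPM on a log axis by tissue, with open grey symbols for wild type and filled red symbols for knockout libraries, a symbol shape for each replicate number (1 mouse per genotype and number) and a bar for the mean of 3 libraries. The range of the axis differs between panels. In iBAT, ko replicate 2 (square) was the highest of 6 libraries for 8 of 10 genes.

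Among the FOS family genes, Fos reached 1.05, 1.30 and 2.004 CPM in wild type iBAT (replicates 1, 2 and 3) and 0.548, 7.36 and 5.86 CPM in knockout iBAT. The knockout mean was 3.16-fold that of wild type, but ko replicate 1, with 7 counts, was the lowest of the 6 libraries, so that the groups overlapped. In iWAT, Fos was 3.09, 3.73 and 5.77 CPM in wild type mice and 4.18, 9.97 and 10.9 CPM in knockout libraries. In eWAT it was 5.32, 4.90 and 4.69 CPM in wild type mice and 6.65, 17.5 and 3.07 CPM in knockout libraries. The replicate 2 knockout mouse thus had the highest Fos level in iBAT and eWAT, while the replicate 3 knockout mouse was high in iBAT and iWAT and lowest of all in eWAT. Without the replicate 2 mouse the eWAT difference disappeared, as the log2 ratio of means went from 0.87 to -0.03.

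Fosb, whose product is a second partner of JUN proteins, showed the widest spread. Wild type iBAT held 7, 8 and 3 counts (0.433, 0.519 and 0.194 CPM), and knockout iBAT held 2, 132 and 251 counts (0.157, 9.92 and 16.2 CPM). The mean ratio of 22.9 rested on ko replicates 2 and 3, and ko replicate 1 was below every wild type library, although it and the wild type replicates were near the limit set by a count of 0. In the white tissues Fosb lay between 0.735 and 2.67 CPM in all 12 libraries. Its knockout to wild type ratio was 1.48 in iWAT and 0.753 in eWAT, and the groups overlapped in both.

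Fosl2, which encodes FRA-2, was the steadiest member in iBAT. It was 27.4, 26.2 and 29.8 CPM in wild type mice and 33.1, 48.8 and 37.9 CPM in knockout iBAT. All 3 knockout libraries lay above all 3 wild type libraries, yet the ratio of means was only 1.44, the smallest of the 10 genes. In iWAT it was 51.3, 40.2 and 35.2 CPM in wild type mice and 56.5, 49.957 and 41.7 CPM in knockout libraries. In eWAT the order turned, with a mean of 57.2 ± 2.75 CPM in wild type mice and 51.1 ± 10.4 CPM in knockout libraries (SD, n = 3).

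Of the JUN family genes, Jun was 42.2, 55.9 and 36.7 CPM in wild type iBAT and 45.6, 103 and 62.0 CPM in knockout iBAT, a ratio of means of 1.56. In the white tissues it was highest in the replicate 1 mice of either genotype, with 98.9 CPM in iWAT wt, 78.5 CPM in iWAT ko, 137 CPM in eWAT wt and 103 CPM in eWAT ko. The remaining white libraries ranged from 34.2 to 76.5 CPM. Junb was 23.6, 21.6 and 17.97 CPM in wild type iBAT and 16.99, 49.97 and 42.9 CPM in knockout iBAT, a ratio of 1.74 with ko replicate 1 below all wild type libraries.

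In iWAT, Junb was highest in the 2 libraries with lymphocyte markers, at 55.1 CPM in wt replicate 3 and 42.2 CPM in ko replicate 2. The other 4 iWAT libraries were between 9.90 and 22.2 CPM. The part of the lymphocyte RNA in these values was not tested. With all libraries Junb was lower in knockout than in wild type iWAT (log2 ratio -0.18), and without the libraries holding RNA of other tissue the ratio was 0.62, with 2 wild type and 1 knockout library left.

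Atf3 followed another order of libraries than the rest. It was 13.0, 1.36 and 0.905 CPM in wild type iBAT and 26.7, 6.84 and 1.80 CPM in knockout iBAT. The replicate 1 mice of both genotypes were therefore the 2 highest, and iBAT ko replicate 1, which was the lowest library for Fos, Fosb, Junb and Ier2, was the highest for Atf3. The summed level of 11 heat shock genes, which encode chaperones, was 7697, 3997 and 2539 CPM in wild type mice and 7291, 3876 and 2853 CPM in knockout iBAT, so that the same pair of libraries was highest. Among these, Hspa1a was 69.3, 2.72 and 2.39 CPM in wild type mice and 119, 27.2 and 2.19 CPM in knockout iBAT. The part of heat shock genes in the level of Atf3 was not tested. Without ko replicate 1 the log2 ratio of Atf3 went from 1.21 to -0.24, and Atf3 was then the 1 member with a lower mean in knockout iBAT.

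Egr1 was 10.3, 9.59 and 11.9 CPM in wild type iBAT and 15.3, 93.3 and 69.5 CPM in knockout iBAT. Every knockout library lay above every wild type library, and the mean was 5.598-fold higher, at 59.4 ± 40.01 CPM against 10.6 ± 1.17 CPM (SD, n = 3). In iWAT the wild type libraries lay close together, at 17.6, 16.9 and 17.8 CPM, and the knockout libraries at 12.8, 22.1 and 45.5 CPM. In eWAT, Egr1 was 36.8, 18.4 and 19.3 CPM in wild type mice and 15.7, 51.9 and 15.002 CPM in knockout libraries. The groups overlapped in both white tissues, and without the replicate 3 mouse the iWAT log2 ratio of 0.62 went to -0.000282.

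Nr4a1 was 15.7, 28.3 and 25.3 CPM in wild type iBAT and 34.4, 389 and 81.1 CPM in knockout iBAT. All 3 knockout libraries were again above all wild type libraries. The ratio of means was 7.27, and the log2 ratio of 2.86 went to 1.32 without ko replicate 2. In iWAT, Nr4a1 was 5.46, 4.77 and 11.6 CPM in wild type mice and 11.4, 18.3 and 5.94 CPM in knockout libraries. The highest values, in ko replicate 2 and wt replicate 3, were those of the libraries with lymphocyte markers, and the part of lymphocyte RNA was not tested. In eWAT it was 23.4, 5.43 and 6.72 CPM in wild type mice and 5.02, 15.6 and 5.40 CPM in knockout libraries, with the highest value in a wild type mouse. The high level of the replicate 3 knockout mouse was seen in iBAT and not in its white tissues.

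Ier2 was 20.6, 18.5 and 18.4 CPM in wild type iBAT and 16.9, 53.1 and 28.1 CPM in knockout iBAT, a ratio of 1.71. In the white tissues it ranged from 11.6 to 29.9 CPM, and its highest value was that of iWAT wt replicate 3, the library with the most lymphocyte RNA. Dusp1 was 59.7, 43.7 and 18.2 CPM in wild type iBAT and 70.7, 104 and 54.7 CPM in knockout iBAT, a ratio of 1.89. In iWAT it was 66.2, 39.2 and 30.01 CPM in wild type mice and 86.2, 62.7 and 63.8 CPM in knockout libraries, and only wt replicate 1 kept the groups from separating. In eWAT the knockout libraries spanned 39.6 to 94.9 CPM and enclosed the wild type range of 56.8 to 72.9 CPM.

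**Figure D3:**
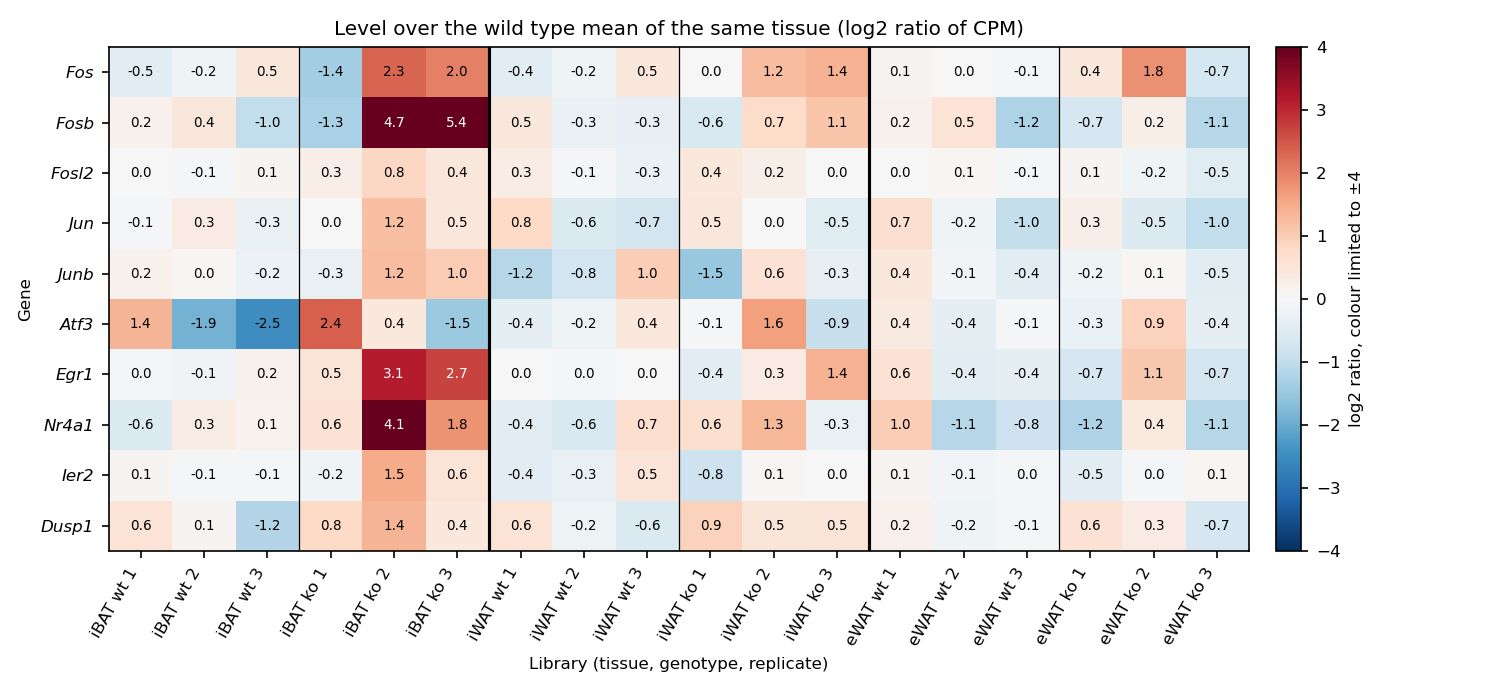
Log2 ratio of each gene's CPM to the wild type mean of the same tissue, for 18 libraries (columns) and 10 genes (rows), with red above and blue below that mean. iBAT ko replicate 2 was above the wild type mean for all 10 genes and eWAT ko replicate 3 for 1.

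Set together, the 10 genes had higher means in knockout than in wild type iBAT in 10 of 10 cases, with a median ratio of 2.09 (log2 1.07, range 0.52 to 4.52). This direction is what the genes were chosen for, and the median log2 ratio over all 18728 genes was -0.000838. All 3 knockout libraries were above all wild type libraries for Fosl2, Egr1 and Nr4a1, and for 2.32% of all genes. In iWAT 8 of 10 genes had a higher knockout mean, with a median log2 ratio of 0.59, and 0 of 10 separated the groups, against 2.8% of all genes. In eWAT 4 of 10 had a higher knockout mean, with a median of -0.14, and again 0 separated, against 2.94% of all genes. Without the 4 libraries holding RNA of other tissue, the median was 0.32 in iWAT, with 7 of 10 genes higher, and -0.04 in eWAT, with 4 of 10.

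The libraries did not contribute equally. In iBAT, ko replicate 2 was highest for 8 genes and above the wild type mean for all 10, with a median ratio of 2.68 to that mean, and its 10 genes summed to 865 CPM. In ko replicate 3, 8 genes were in the top 2 and the sum was 400.02 CPM. In ko replicate 1, 4 genes were the lowest of the 6 libraries, 6 were above the wild type mean, the median ratio was 1.10, and the sum was 260.5 CPM. Wild type iBAT summed to 161 to 214 CPM. Leaving out ko replicate 2 kept 10 of 10 genes above wild type in iBAT, with a median log2 ratio of 0.89. The single ratios were then 4.42 for Fosb, 1.999 for Egr1, 1.49 for Atf3, 1.32 for Nr4a1 and 1.14 for Fos on the log2 scale, and 0.23 to 0.63 for the other 5 genes.

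The same mice were not set apart in all tissues. Of the replicate 2 knockout libraries, the one from iWAT was above the wild type mean for 9 genes and the one from eWAT for 7. The replicate 3 knockout mouse was above it for 9 genes in iBAT and 5 in iWAT, while in eWAT it was the lowest of 6 libraries for 6 genes and above the mean for 1. That eWAT library is the one with epididymis markers. In eWAT the wild type mean was itself raised by wt replicate 1, which was the highest library for 4 genes. Without this mouse 7 of 10 genes had a higher knockout mean, with a median log2 ratio of 0.24. That library held 16.4 CPM of epididymis markers, against 0.0858 to 2.47 CPM in the eWAT libraries other than ko replicate 3. Its adipocyte markers summed to 14964 CPM, against 10043 CPM in ko replicate 3 and 21725 to 22894 CPM in the rest. It was kept where the 4 libraries with RNA of other tissue were left out, and the part of its composition was not tested. In iBAT ko replicate 2, all 4 erythrocyte markers found were at their highest, with a sum of 1107 CPM against 472 to 750 CPM in the other iBAT libraries. Lymphocyte markers summed to 2.35 to 6.70 CPM and macrophage markers to 51.3 to 133 CPM in iBAT, with ko replicate 2 inside both ranges, and 5 of 5 epididymis markers were at 0 in ko replicates 2 and 3. The part of blood content in the early gene levels was not tested.

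To ask how these genes differ between brown and white fat, the tissues were compared with edgeR in all 18 libraries with genotype as a covariate. Because the genes were chosen for high knockout values in iBAT, this choice favours high iBAT levels in the comparison of 18 libraries and may favour low iBAT levels among the wild type libraries alone, so both are given. Over 6 libraries of each tissue, Nr4a1 averaged 95.6 CPM in iBAT against 9.59 CPM in iWAT and 10.3 CPM in eWAT, with log2 fold changes of 3.01 ± 0.72 and 2.73 ± 0.74 (SE). These values are a description, since the iBAT mean rests on the knockout libraries on which the gene was chosen and was 23.1 ± 6.58 CPM in wild type (SD, n = 3). Fosl2 was lower in iBAT than in iWAT, by a log2 fold change of -0.45 ± 0.15 (SE, edgeR adjusted p = 0.0169), and than in eWAT, by -0.70 ± 0.15 (adjusted p = 0.0007415). Fos was lower in iBAT than in eWAT by -1.36 ± 0.49 (edgeR adjusted p = 0.02685). Against iWAT the log2 fold change of Fos was -1.17 ± 0.49 and did not pass (edgeR adjusted p = 0.052), whereas with the mouse as a block it was -1.32 ± 0.41 and passed (adjusted p = 0.0141).

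Of the 9 members other than Nr4a1, Fosl2 passed between iBAT and iWAT, where 54.3% of all genes did, and Fos and Fosl2 passed between iBAT and eWAT, where 54.6% did. Between iWAT and eWAT 0 of 10 passed with edgeR and 0 with DESeq2, 0 had an unadjusted p under 0.05 with edgeR, and 10.2% of all genes passed, and the mean levels of these 2 tissues could not be ordered for any member. The median log2 fold change of the members was 0.24, 0.29 and -0.26 in these 3 contrasts, against -0.14, -0.17 and 0.01 over all genes. The SE of the iBAT contrasts ranged from 0.15 for Fosl2 to 0.98 for Fosb.

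**Figure D4:**
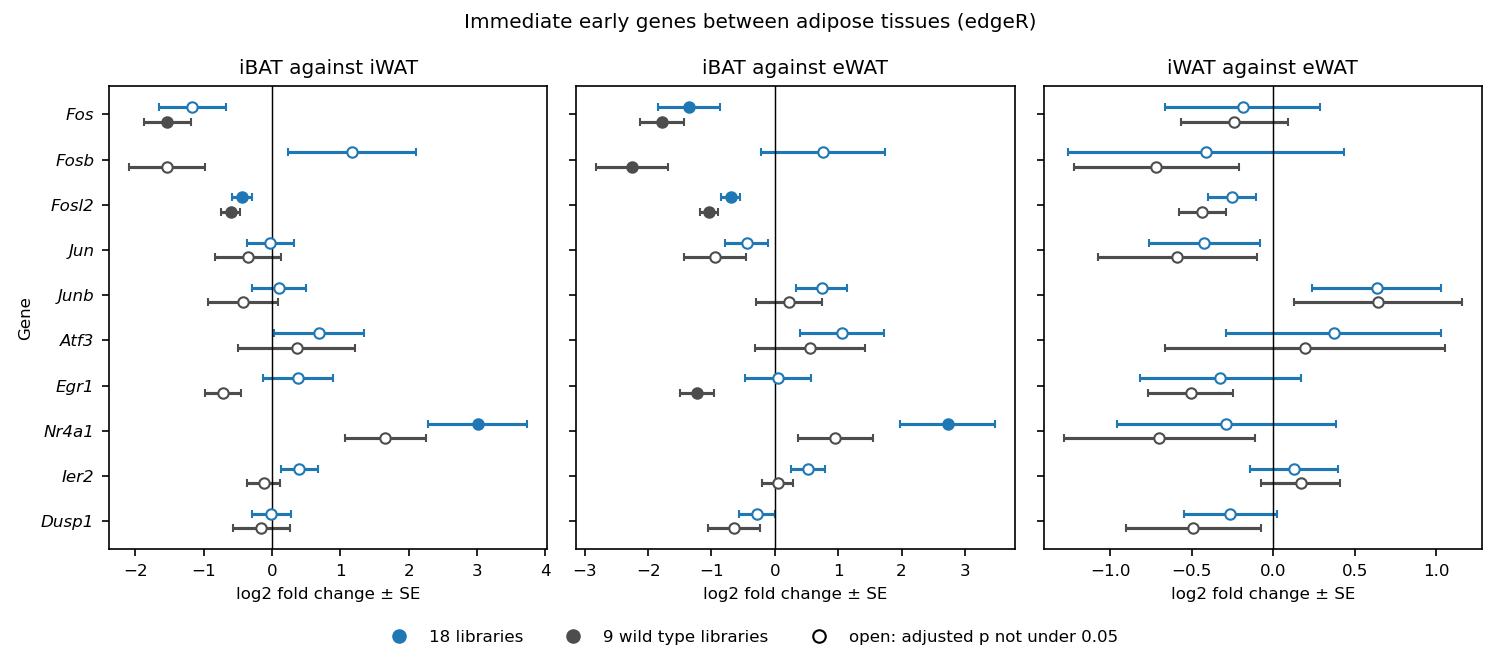
Log2 fold change of each gene between tissues with its SE, in all 18 libraries (blue) and in the 9 wild type libraries (grey), with filled points where the edgeR adjusted p was under 0.05. Nr4a1 was 3.01 higher in iBAT than in iWAT in all libraries and 1.66 in wild type, and Fosb and Egr1 lay on opposite sides of 0 for iBAT against eWAT in the 2 fits. The horizontal range differs between panels.

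In wild type libraries alone, 4 of 10 genes passed between iBAT and eWAT and all 4 were lower in iBAT, where 37.7% of all genes passed. The choice of the genes may favour low wild type iBAT levels, so the calls of this fit are a description. Fos (log2 fold change -1.77 ± 0.35, edgeR adjusted p = 0.00432) and Fosl2 (-1.04 ± 0.14, adjusted p = 0.000793) were also called with all 18 libraries. The remaining genes were Fosb (-2.25 ± 0.56) and Egr1 (-1.23 ± 0.27), and wild type iBAT held 7, 8 and 3 counts of Fosb. Fosb and Egr1 had values of 0.76 and 0.05 with all 18 libraries (SE 0.98 and 0.52), and neither was called there. Against iWAT the sign of both also differed between the fits, at -1.54 and -0.72 in wild type and 1.17 and 0.38 with all libraries, none of them called. Between iBAT and iWAT, Fos (-1.54 ± 0.34, edgeR adjusted p = 0.00969) and Fosl2 (-0.61 ± 0.14, adjusted p = 0.0120) passed, against 37.8% of all genes. Nr4a1 did not pass in wild type libraries, with values of 1.66 ± 0.60 against iWAT (edgeR adjusted p = 0.0562) and 0.96 ± 0.59 against eWAT (adjusted p = 0.229). Between iWAT and eWAT 0 members passed and 1 had an unadjusted p under 0.05, against 1.42% of all genes called. The median log2 fold change of the members in wild type was -0.39 between iBAT and iWAT, -0.79 between iBAT and eWAT and -0.46 between iWAT and eWAT, against -0.11, -0.10 and 0.04 over all genes.

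In the 18 fits that left out 1 library, Nr4a1 had log2 fold changes of 1.95 to 3.30 against iWAT and 1.75 to 3.32 against eWAT. Each of these fits holds knockout iBAT libraries, on whose values the gene was chosen, and with wild type libraries alone Nr4a1 was not called. Fosl2 was called against eWAT in all 18 such fits and against iWAT in 17, and without iBAT wt replicate 1 its edgeR adjusted p was 0.0506. Fos was called against eWAT in 15 of 18, and without eWAT ko replicate 2, iBAT wt replicate 1 or iBAT wt replicate 2 its edgeR adjusted p was 0.102, 0.0649 and 0.059. Leaving out a whole mouse ended the call of Fos against eWAT for each wild type mouse (edgeR adjusted p of 0.0545 to 0.101), and that of Fosl2 against iWAT for the wt replicate 1, wt replicate 2 and ko replicate 1 mice (0.0605 to 0.0957). Without the 4 white libraries holding RNA of other tissue, the same members passed in both contrasts, with edgeR adjusted p-values of 0.000183 to 0.031.

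The wider early response was described with 60 related genes from listed families, of which 58 passed the filter. Between iBAT and iWAT 33 passed, 10 higher and 23 lower in iBAT, where 54.3% of all genes passed (24% higher and 30.3% lower). Between iBAT and eWAT 32 passed, 12 higher and 20 lower, where 54.6% of all genes did (24.4% higher and 30.2% lower). The list thus passed about as often as all genes. Counted by sign alone, 22 and 20 of the 58 were higher in iBAT. The median log2 fold change of the list was -0.25 and -0.27. Without the 4 white libraries holding RNA of other tissue, 29 of 58 passed against iWAT and 32 against eWAT, where 45.3% and 57.1% of all genes did. Both other NR4A receptor genes were higher in iBAT, with calls that were also made in wild type libraries alone (edgeR adjusted p of 0.0007145 to 0.00825). Nr4a3 was higher in iBAT by log2 3.23 ± 0.57 than in iWAT (edgeR adjusted p = 0.000163) and by 4.15 ± 0.60 than in eWAT (adjusted p = 1.947e-05), and Nr4a2 by 2.11 ± 0.31 (adjusted p = 2.894e-05) and 3.30 ± 0.33 (adjusted p = 2.882e-07). In contrast, Batf, an AP-1 partner of lymphocytes, was lower in iBAT than in iWAT by -4.38 ± 0.80 (edgeR adjusted p = 0.000213), as was the phosphatase gene Dusp2 by -4.26 ± 0.996 (adjusted p = 0.00172). In iWAT, Dusp2 was 31.2 CPM in wt replicate 3 and 12.3 CPM in ko replicate 2, the libraries with lymphocyte markers, and 0.487 to 1.91 CPM in the others, and the part of lymphocyte RNA was not tested. Without the 4 libraries, Batf was still lower, by -2.95 ± 0.54 (edgeR adjusted p = 0.000522), and Dusp2 was no longer called, at -1.66 ± 0.65 (adjusted p = 0.0514). Of the 23 listed upstream regulators (serum response factor and its cofactors, CREB family and MAP kinases), 13 passed in each iBAT contrast, 6 higher and 7 lower in iBAT, again about as often as all genes, and by sign alone 11 were higher than in iWAT and 8 than in eWAT. Without the 4 libraries 12 of 23 passed against iWAT and 15 against eWAT.

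Between genotypes, 0 of the 81 related and upstream genes tested passed across tissues with edgeR, where 0.00534% of all genes passed, and 10 had an unadjusted p under 0.05, as did 2.19% of all genes. With DESeq2 0 of 82 passed and 11 had an unadjusted p under 0.05, as did 1.61% of all genes. Without the 4 white libraries 0 of 81 passed with edgeR and 20 had an unadjusted p under 0.05, as did 2.41% of all genes. The smallest unadjusted p-values were those of Errfi1, an inhibitor of the EGF receptor (log2 fold change 0.90 ± 0.22), Sik1, a cAMP-induced kinase (1.03 ± 0.26), and Ccn1, a matrix protein (0.91 ± 0.24), all with an edgeR adjusted p of 0.9999. The 3 tissues of a mouse are not independent, and with counts summed per mouse 0 of 82 passed with edgeR and 8 had an unadjusted p under 0.05, as did 1.46% of all genes. The lists were chosen with earlier results of these data known, so these shares are a description. Within iBAT, 47 of the 58 related genes had a higher mean in knockout libraries, with a median log2 ratio of 0.30, against -0.000838 over all genes. In iWAT and in eWAT 34 of 58 were higher, with medians of 0.06 and 0.10, against -0.01 and 0.00 over all genes, and without the 4 libraries 41 were higher in iWAT and 34 in eWAT, with medians of 0.21 and 0.08. In iBAT ko replicate 2, Egr3 stood furthest above the wild type mean, at 17.3-fold, with 7.59 CPM against 0.928, 0.130 and 0.259 CPM in wild type.

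**Figure D5:**
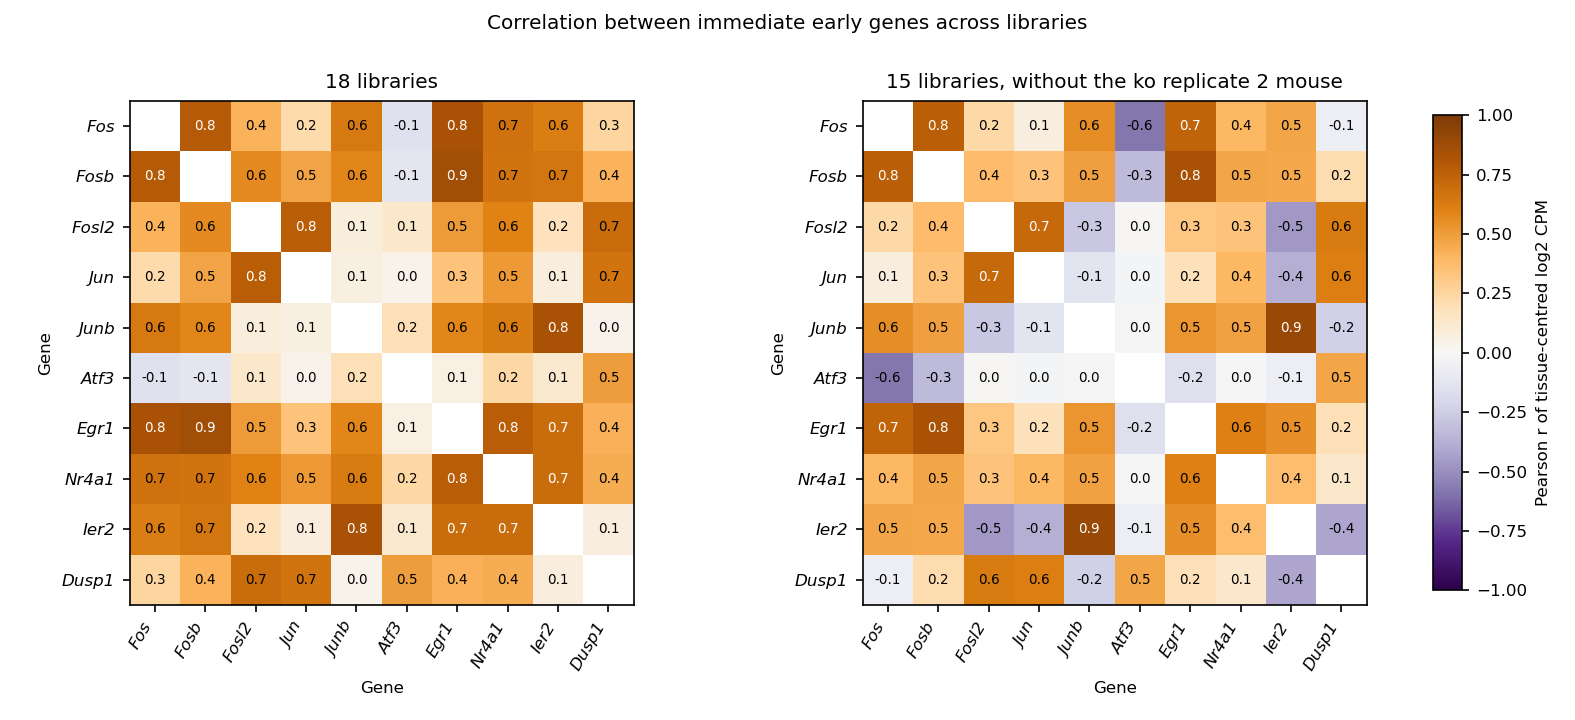
Pearson correlation between the 10 genes of their log2 CPM after subtracting the tissue mean, in 18 libraries (left) and in 15 libraries without the replicate 2 knockout mouse (right). Fos, Fosb and Egr1 were positively correlated in both sets, with r from 0.739 to 0.861, while the median over pairs was 0.494 on the left and 0.338 on the right.

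Correlations across libraries are given as a description, since the 18 libraries come from 6 mice and share the scaling of their depth. The members were chosen for high values in the same knockout libraries, so that shared variation is in part built in by the choice, and leaving out the replicate 2 knockout mouse still keeps iBAT ko replicate 3. After subtracting the tissue mean, the 45 pairs of members had a median r of 0.494, and 22 were above 0.5. Egr1 with Fosb (0.861), Fos with Egr1 (0.832) and Fos with Fosb (0.784) were among the highest, as were Junb with Ier2 (0.836) and Fosl2 with Jun (0.773). Atf3 had the lowest mean r with the others, 0.112, and Nr4a1 the highest, 0.581. Without the replicate 2 knockout mouse the mean r was -0.0774 for Atf3 and 0.353 for Nr4a1, below Egr1 (0.421) and Fosb (0.402). The median over pairs was then 0.338 and 14 pairs were below 0. Junb with Ier2 (0.892), Egr1 with Fosb (0.832), Fos with Fosb (0.763) and Fosl2 with Jun (0.713) were still above 0.7, whereas Nr4a1 with Ier2 went from 0.701 to 0.369.

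By the Pearson r of log2 CPM less the tissue mean, among 18718 other genes the pattern most like the mean of the 10 members over 18 libraries was that of Dusp6, a phosphatase of ERK kinases, with r = 0.933, followed by Zc3h12b (0.861), Egr3 (0.787) and Irs2 (0.781). Dsn1, Ifitm5, Lgr5, Bdh2, Btg2 and Sik1 followed, with r from 0.771 down to 0.741. Of these 10 genes, 4 were on the lists of related early genes (Dusp6, Egr3, Btg2 and Sik1), which held 58 of the 18718 genes ranked. The lists were chosen with earlier results of these data known, so this count is a description. Without the replicate 2 knockout mouse, Dusp6 was the 1 gene that stayed among the 10 highest, at r = 0.849. In iBAT, Dusp6 was 34.7, 21.2 and 13.6 CPM in wild type mice and 32.6, 100.1 and 46.9 CPM in knockout libraries, with the same 2 knockout libraries on top as for Egr1, Nr4a1 and Fosb.

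The summed level of 10 genes that respond to cAMP in brown fat, Ucp1 among them, was not highest in the library with the highest Nr4a1. It was 8683, 6824 and 6590 CPM in wild type mice and 13194, 7524 and 6186 CPM in knockout iBAT. Of these genes, 6 had their highest iBAT value in ko replicate 1, 3 in ko replicate 2 and 1 in ko replicate 3. Ppargc1a, a coactivator of mitochondrial genes, was 137, 54.1 and 37.8 CPM in wild type mice and 272, 32.2 and 48.6 CPM in knockout iBAT, and Nr4a3 was 27.4, 15.5 and 8.47 CPM in wild type mice and 55.3, 17.4 and 3.86 CPM in knockout iBAT. Both were highest in the replicate 1 mice, as Atf3 was. Nr4a1 was highest in ko replicate 2, and so was Nr4a2, at 19.8, 17.4 and 10.02 CPM in wild type and 24.5, 46.3 and 17.2 CPM in knockout iBAT.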

How the data were processed

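PolyA RNA libraries of 18 samples were grouped by tissue, genotype and replicate number from their titles. The authors trimmed reads using cutadapt, and salmon quantified transcripts of GENCODE M22 or a combination with RNAcentral (mouse, GRCm38). The table the authors deposited holds estimated counts per gene as whole numbers, not normalised. How strand was handled and how transcripts were summed to genes is not given in the sources used here, and near-identical copies share reads by a model. The members and all gene lists were chosen with earlier results of these data known.

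Genes were tested with the quasi-likelihood test of edgeR 4.0.16 in R 4.3.3 on the counts as deposited, after filterByExpr by group and TMM scaling, in a model of tissue and genotype. Benjamini-Hochberg adjustment covered the 18728 genes tested, with a threshold of 0.05, and the SE of a log2 fold change was taken as its size over the root of the F statistic. Levels in CPM use the TMM-scaled library totals, and correlations used log2 CPM with a prior count of 2. DESeq2 1.42.0 was an alternative, beside other scalings and filters, the mouse or the replicate number as a block, wild type libraries only, counts summed per mouse, and leaving out each mouse or library. Leaving out the 4 white libraries with RNA of other tissue was chosen after seeing the data. The code was tested on simulated data with 200 changed genes. Precision was set by 3 libraries per group and 14997901 to 34389586 counts per library. Replicates within a group are separate mice, but the main fits hold no term for the mouse and treat all libraries as independent. Their p-values therefore mix the spread between mice with that between tissues of a mouse. The mouse block and the counts summed per mouse take the mouse into account.

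The mouse identifiers in the labels pair the tissues. Deviations from the group means of the same mouse in another tissue had a median correlation of 0.0573 over 18 pairs (-0.165 to 0.326), against -0.0369 over 36 pairs of other mice of that genotype. Named genes were all members, Gm15551, up to 4 called genes of the largest change per list family and tissue contrast, and the 10 genes most like the members, and others named were chosen after their values were seen. Of the erythrocyte markers, Hbb-bs was not matched. Positions are from GENCODE M21 (GRCm38) and sequences from RefSeq (GRCm38.p6).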

Additional observations from a re-analysis of the deposited data

Results flagged for a closer look

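Within each tissue, 5 of 30 sets of 6 libraries (10 genes in 3 tissues) had a highest library whose gap to the next was large for the range of the set. A set of 6 is marked in about 1 of 20 cases by chance, but these genes were chosen on high knockout values, so the number is not set against chance. In iBAT, ko replicate 2 stood apart for Nr4a1 at 389 CPM, with 81.1 CPM in the next library, and for Ier2 at 53.1 CPM, with 28.1 CPM in the next. In iWAT, ko replicate 2 stood apart for Atf3 at 12.3 CPM, with 5.31 CPM next in wt replicate 3. These were the libraries with lymphocyte markers, and their macrophage markers summed to 1345 and 1437 CPM, against 232 to 542 CPM in the other iWAT libraries. In iWAT, ko replicate 3 stood apart for Egr1 at 45.5 CPM, with 22.1 CPM next. In eWAT, ko replicate 2 stood apart for Fos at 17.5 CPM, with 6.65 CPM next. In that library the 5 smooth muscle and pericyte markers summed to 1285 CPM, against 423 to 781 CPM in the other eWAT libraries, and all 4 Schwann cell markers were at their highest, summing to 39.6 CPM against 19.7 to 33.2 CPM. The part of these cell types in the early gene levels was not tested. In all 5 sets the highest library was a knockout library, which the choice of the genes favours, and in 4 of the sets it came from the replicate 2 knockout mouse.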

How the results depend on the processing

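The counts of members that passed between tissues, which include Nr4a1, were the same, within 1.5 times, under other scalings, filters, DESeq2 and the mouse block. Leaving out 1 mouse or library gave 1 to 3 members between iBAT and iWAT, with 1 without the wt replicate 1 mouse, the wt replicate 2 mouse or iBAT wt replicate 1, where Fosl2 no longer passed and fewer samples were fitted. It gave 2 to 3 between iBAT and eWAT, and 0 between iWAT and eWAT. With the mouse as a replicate block 3 members passed between iBAT and iWAT, 3 between iBAT and eWAT and 0 between iWAT and eWAT, and the block changed no call but that of Fos. Fos also passed between iBAT and iWAT with DESeq2 (adjusted p = 0.0339), without the ko replicate 1 or 2 mouse, and without iBAT ko replicate 2 or 3, iWAT ko replicate 1 or eWAT ko replicate 3, and a minimum of 10 counts in every library removed it from the test. Of 384 alternative tissue values of single members, 339 kept direction and call, 8 lost the call, 5 gained it and 32 changed sign, 30 of these with no call in either setting, and the cause was not tested. In wild type libraries the sign changed for Fosb (-2.25) and Egr1 (-1.23) between iBAT and eWAT, and for Fosb (-1.54), Egr1 (-0.72), Junb (-0.42) and Ier2 (-0.12) between iBAT and iWAT. Without the 4 white libraries it changed for Egr1 against iWAT (-0.0936) and eWAT (-0.30), and for Junb (-0.0757) and Atf3 (-0.34) between iWAT and eWAT. A minimum of 10 counts gave -0.0134 for Junb against iWAT and -0.0216 for Egr1 against eWAT, and the mouse block gave 0.0904 for Jun against iWAT and -0.0509 for Egr1 against eWAT. For Dusp1 against iWAT, DESeq2 size factors gave 0.00499 and the DESeq2 test 0.00231. Leaving out 1 mouse spanned 0 between iBAT and iWAT for Jun (-0.27 to 0.29), Junb (-0.0787 to 0.59), Atf3 (-0.0623 to 1.22), Egr1 (-0.0786 to 0.60) and Dusp1 (-0.20 to 0.0618). It did so between iBAT and eWAT for Fosb (-0.29 to 1.39) and Egr1 (-0.31 to 0.45), and between iWAT and eWAT for Fos (-0.46 to 0.0742), Nr4a1 (-0.56 to 0.44) and Ier2 (-0.0426 to 0.22). Over all genes, wild type libraries gave 6595, 6574 and 247 calls in the 3 contrasts against 10164, 10220 and 1911, with fewer samples, and leaving out a mouse gave 750 to 1595 between iWAT and eWAT. A minimum of 10 counts gave 1149 there.

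Of 290 alternative genotype ratios, 275 moved by less than 1 SD, and 26 changed sign. Those that began more than 1 SD from 0 were Egr1 in iWAT without the ko replicate 3 mouse and Fos in eWAT without the ko replicate 2 mouse. Leaving out 1 mouse gave -0.000282 to 0.95 for Egr1 in iWAT and -0.0325 to 1.28 for Fos in eWAT. For the median over members, leaving out 1 mouse gave a log2 ratio from 0.73 to 1.39 (iBAT), from 0.23 to 0.61 (iWAT) and from -0.27 to 0.24 (eWAT), where it was above 0 without wt replicate 1. Same-numbered wild type and knockout libraries correlated from -0.465 to 0.551 over 9 pairs, 4 of them above 0.1, so the numbers were not taken as pairs. With the replicate number as a block the median was 1.03, 0.34 and -0.14 in iBAT, iWAT and eWAT, and 0 of 81 related genes passed, with 12 at an unadjusted p under 0.05, against 2.54% of all genes. Over all genes, genotype gave 1 call, 3 with this block, 4 with DESeq2, and 0 with counts summed per mouse or a minimum of 10 counts. Depth limits Fosb in iBAT, where 4 of 6 libraries held 2 to 8 counts.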
